A study of Homo sapiens with 4 samples.

Results

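Chromosome 20 carried more peaks per Mb than any other of the 23 chromosomes compared (1 to 22 and X), in a pair of ChIP-seq peak lists from A549 lung adenocarcinoma cells. It is described here from all peaks whose chromosome field reads 20, which are 852 of the 16650 peaks of both lists. The FLAG list gave 464 of its 9466 peaks and the SMAD3 list 388 of its 7184. The chromosome was selected on this peak density, so its density is given as a description and was not tested. All libraries came from A549 cells stably transduced with ATOH8 by a retrovirus, with no further treatment in the labels. There were 4 libraries: a ChIP with an antibody against FLAG, taken as the reading of tagged ATOH8, a ChIP with an antibody against SMAD3, and an input library without antibody for each ChIP. Cells without the ATOH8 retrovirus were not analysed here, so no value below separates ATOH8 from the cells that carry it. With 1 library per antibody there are no replicates. Intervals therefore cover counting error only, and no difference between conditions was tested.

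ATOH8 belongs to the basic helix-loop-helix transcription factors. Proteins of this family bind E-boxes, short DNA elements that read CANNTG. SMAD3 acts downstream of TGF-beta receptors, moves to the nucleus once phosphorylated by them and binds DNA at short elements that read GTCTG, or CAGAC on the other strand. Chromosome 20 has a gene-rich long arm that many carcinomas gain. Its centromere is built of satellite repeats, where short reads are hard to place. A549 is a hypotriploid line whose chromosomes are present in unequal copy numbers, and chromatin from a region with more copies gives more tags in ChIP and input alike.

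A peak overlapped 12 of the 921 promoter windows of chromosome 20 in the RefSeq table (GRCh38.p14). It came from the FLAG list at 8 windows (0.869%, 95% Clopper-Pearson interval 0.376 to 1.70%) and from the SMAD3 list at 4 (0.434%, 0.118 to 1.11%). Over the windows of all chromosomes it was 0.452% and 0.235%. Neighbouring windows can overlap and share a peak, as ACOT8 and ZSWIM3 did for FLAG and TRMT6 and MCM8 for SMAD3. Windows are therefore not independent, and the intervals may be too narrow. A window runs from 250 bases before to 50 bases after a gene's start. The windows below are those of the strongest such peak, of the strongest at a protein-coding gene, of a peak that lies wholly within its window, and of a cell cycle gene. Capitals mark the E-box CANNTG and the SMAD element, which reads GTCTG or, on the other strand, CAGAC. The E-box pattern reads the same on both strands, and overlapping matches were allowed.
LOC124904864: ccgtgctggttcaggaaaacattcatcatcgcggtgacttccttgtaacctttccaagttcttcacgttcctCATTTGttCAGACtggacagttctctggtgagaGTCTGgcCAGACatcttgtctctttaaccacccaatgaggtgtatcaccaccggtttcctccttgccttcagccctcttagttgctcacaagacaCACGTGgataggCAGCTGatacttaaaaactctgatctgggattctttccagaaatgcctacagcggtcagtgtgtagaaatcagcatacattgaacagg
TTI1: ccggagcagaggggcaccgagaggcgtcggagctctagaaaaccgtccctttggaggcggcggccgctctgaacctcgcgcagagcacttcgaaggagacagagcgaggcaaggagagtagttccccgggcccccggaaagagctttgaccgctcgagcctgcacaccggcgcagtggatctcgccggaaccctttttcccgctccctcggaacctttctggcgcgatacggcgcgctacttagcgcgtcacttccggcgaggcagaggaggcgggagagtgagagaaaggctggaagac
PHF20: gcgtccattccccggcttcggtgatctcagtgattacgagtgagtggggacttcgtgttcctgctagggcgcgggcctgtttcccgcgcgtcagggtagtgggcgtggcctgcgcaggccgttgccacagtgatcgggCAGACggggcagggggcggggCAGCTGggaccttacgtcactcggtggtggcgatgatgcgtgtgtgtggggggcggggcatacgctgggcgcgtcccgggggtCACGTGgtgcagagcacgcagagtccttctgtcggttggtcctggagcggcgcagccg
MCM8: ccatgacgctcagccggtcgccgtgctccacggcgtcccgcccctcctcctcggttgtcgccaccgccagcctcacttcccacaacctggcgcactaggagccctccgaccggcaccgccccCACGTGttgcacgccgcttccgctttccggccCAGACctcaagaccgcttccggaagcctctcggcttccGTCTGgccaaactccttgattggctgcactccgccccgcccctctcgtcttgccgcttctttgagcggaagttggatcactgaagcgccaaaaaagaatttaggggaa
LOC124904864 is a long non-coding RNA gene (chr20:5657519-5657818, minus strand). Its window held 3 CANNTG and 3 GTCTG or CAGAC matches. The FLAG peak over it (5657036 to 5657745) had a pileup of 19 tags at the summit, 24 bp from the start. Its fold enrichment over input was 4.37, and its −log10 q of 4.48 was the only one past a q of 0.05 among the 12. TTI1 encodes a partner of PIKK-family kinases (chr20:38033407-38033706, minus strand). No match was found in its window, and its FLAG peak had 10 tags and a fold of 3.63. PHF20 encodes a chromatin reader protein (chr20:35771765-35772064, plus strand). Its window held 2 CANNTG and 1 CAGAC match, and the whole 241 bp FLAG peak lay inside it, at 6 tags and 2.70-fold. The SMAD3 peak at LOC124904866, a long non-coding RNA gene, also lay wholly inside its window (7 tags, 3.16-fold). That window, not shown, held no match of either kind. MCM8 encodes a DNA helicase (chr20:5950402-5950701, plus strand) and starts beside TRMT6, a tRNA methyltransferase subunit gene on the other strand. One SMAD3 peak (5950273 to 5950637) overlapped both windows, with 9 tags, a fold of 2.54 and a −log10 q of 0. Of the 12 windows, 8 held CANNTG and 7 held GTCTG or CAGAC. Matches were counted over the whole window of 300 bases, of which a peak covered as few as 14 (ZSWIM3). Whether a match lay under the peak was not counted. These are common letters: 67.0% of the 921 windows of chromosome 20 held CANNTG and 48.1% held GTCTG or CAGAC, against 68.7% and 45.3% of 34961 windows of all chromosomes.

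Chromosome 20 held 7.21 FLAG peaks per Mb (95% Poisson interval 6.57 to 7.90) and 6.03 SMAD3 peaks per Mb (5.45 to 6.66). The next densest was chromosome 19 in the FLAG list, at 5.48, and chromosome 17 in the SMAD3 list, at 4.42. Over the other 22 chromosomes together the lists held 2.91 and 2.22 peaks per Mb. Chromosome 20 thus stood at 2.48 times the others in the FLAG list and at 2.72 times in the SMAD3 list.

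The peaks were not spread evenly. A FLAG peak count of 46, 95 and 54 was found in 3 neighbouring bins of 1 Mb, from 26 to 29 Mb, where the median bin of the chromosome held 4. The same bins held 31, 37 and 32 SMAD3 peaks, again against a median of 4. Together they carried 195 FLAG peaks (42.0% of the chromosome's, 95% Clopper-Pearson interval 37.5 to 46.7%) and 100 SMAD3 peaks (25.8%, 21.5 to 30.4%). No other bin came near these counts: outside the 6 bins from 25 to 31 Mb, the fullest bin had 11 FLAG and 10 SMAD3 peaks, and the 59 bins there had a median of 4 in each list.

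**Figure D1:**
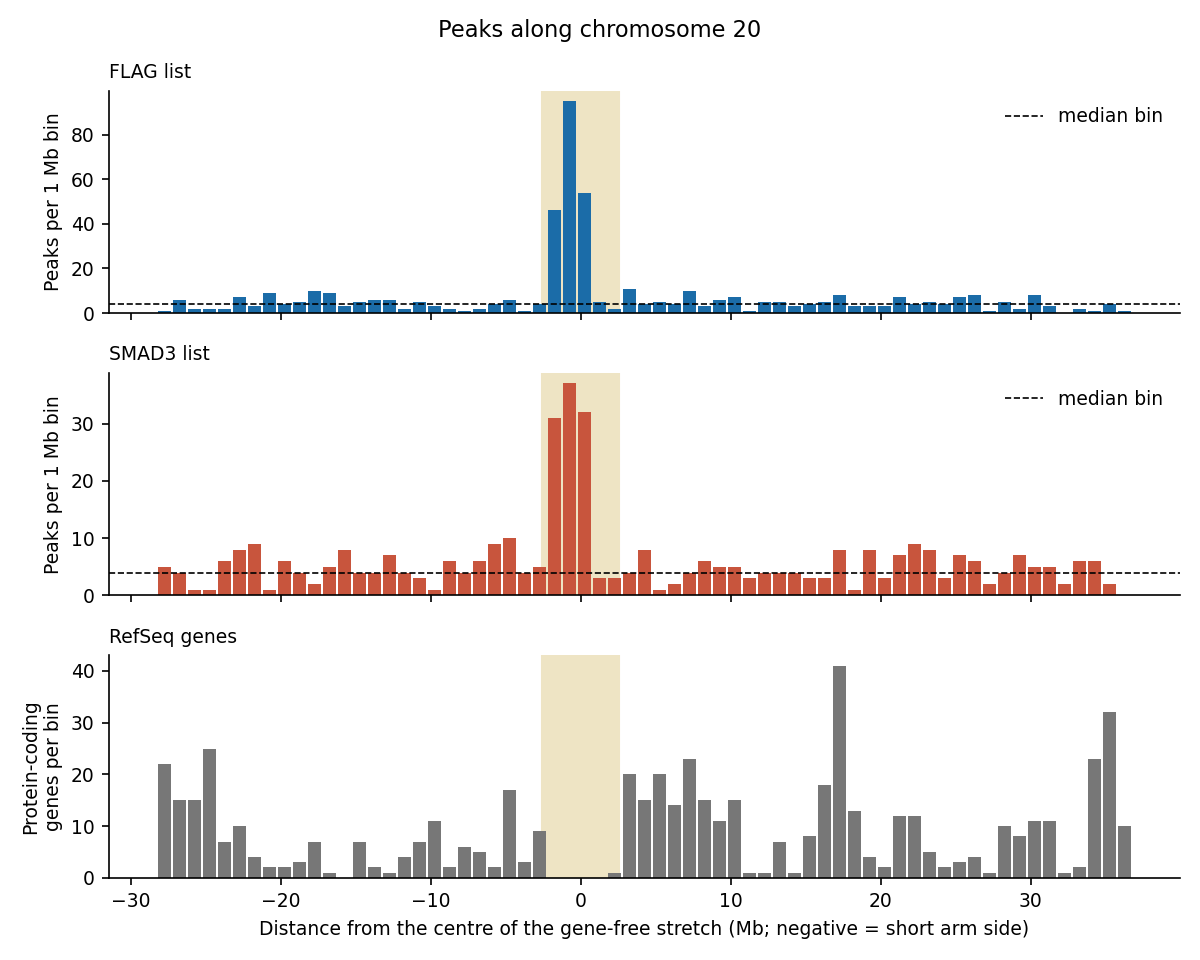
Number of FLAG peaks (top), SMAD3 peaks (middle) and protein-coding genes (bottom) in each 1 Mb bin of chromosome 20, against the distance in Mb from the centre of the longest stretch without a protein-coding gene (shaded). Dashed lines mark the median bin, 4 peaks in each list. Counts of 46, 95 and 54 FLAG peaks and 31, 37 and 32 SMAD3 peaks stand inside the shaded stretch, where no protein-coding gene lies.

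These 3 bins lie in the longest stretch of the chromosome without a protein-coding gene. It runs for 5.12 Mb from ZNF337, a zinc finger gene, to LOC124904970 (25696854 to 30813426) and includes the centromere. RefSeq annotates 64 genes inside it: 42 pseudogenes, 20 long non-coding RNA genes, 1 small nuclear RNA gene and 1 miRNA gene. By symbol, 6 of them belong to the DUX4L family, 4 to FRG1, 3 to CFTRP and 2 to CDC27P, names shared with genes elsewhere in the genome. Its middle, from 26251589 to 28580632 (2.33 Mb), holds no annotated gene of any kind, and 188 FLAG peaks (40.5%, 36.0 to 45.1%) and 91 SMAD3 peaks (23.5%, 19.3 to 28.0%) had their summits there. This is 80.7 FLAG and 39.1 SMAD3 peaks per Mb. Annotated genes of the stretch carried few summits: 1 FLAG summit lay in NCOR1P1, a pseudogene (4.15-fold, 10 tags). Of SMAD3, 6 genes had 1 each, the highest fold being 3.89 in FRG1DP. The miRNA gene, MIR663A (26208243 to 26208264 for the mature part, minus strand), stands at the edge of the peak-dense part. The mature sequence is shown because it is the only miRNA of the stretch, with its seed, bases 2 to 8, in capitals.
hsa-miR-663a: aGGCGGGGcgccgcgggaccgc
The nearest summits to it lay 39845 bp (FLAG) and 76826 bp (SMAD3) away, so no peak lay on it.

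The peaks of the stretch differed from those on the arms in tags but hardly in fold. In the 6 bins from 25 to 31 Mb the median FLAG peak had 17 tags (quartiles 12 and 23), against 8 tags (7 and 9) on both arms. SMAD3 peaks had 11 tags (8 and 16) there and 7 (6 and 8) on the arms. Median folds were 2.88 in the 6 bins and 3.10 on the arms in the FLAG list, and 3.05 and 3.07 in the SMAD3 list. The caller computes a fold as the pileup plus 1 over a local input background plus 1, so that background can be recovered from both columns. It is called the implied input background here, and it cannot fall below a floor of each list, 1.53 tags (FLAG) and 1.27 tags (SMAD3). In the 6 bins its median was 4.95 tags (FLAG) and 2.94 tags (SMAD3), against 1.93 and 1.59 on the arms. Pileup and input background were therefore high together in the stretch. The 93 FLAG and 26 SMAD3 peaks of the chromosome on a background of 5 tags or more all lay in these 6 bins.

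The highest pileup of the chromosome was at the same place in both lists. A FLAG peak at 28308033 to 28308360 held 255 tags over an implied input background of 116, a fold of 2.18. A SMAD3 peak at 28308055 to 28308273 held 196 tags over 99.9, a fold of 1.95, with its summit 15 bp from that of the FLAG peak. Next in pileup came FLAG peaks at 28495705 to 28496034 (101 tags over 55.2) and at 26541799 to 26542215 (92 tags over 63.5). The second highest SMAD3 pileup lay at 26605496 to 26605805, with 73 tags over 49.9. By fold these are among the weak peaks of the chromosome.

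**Figure D2:**
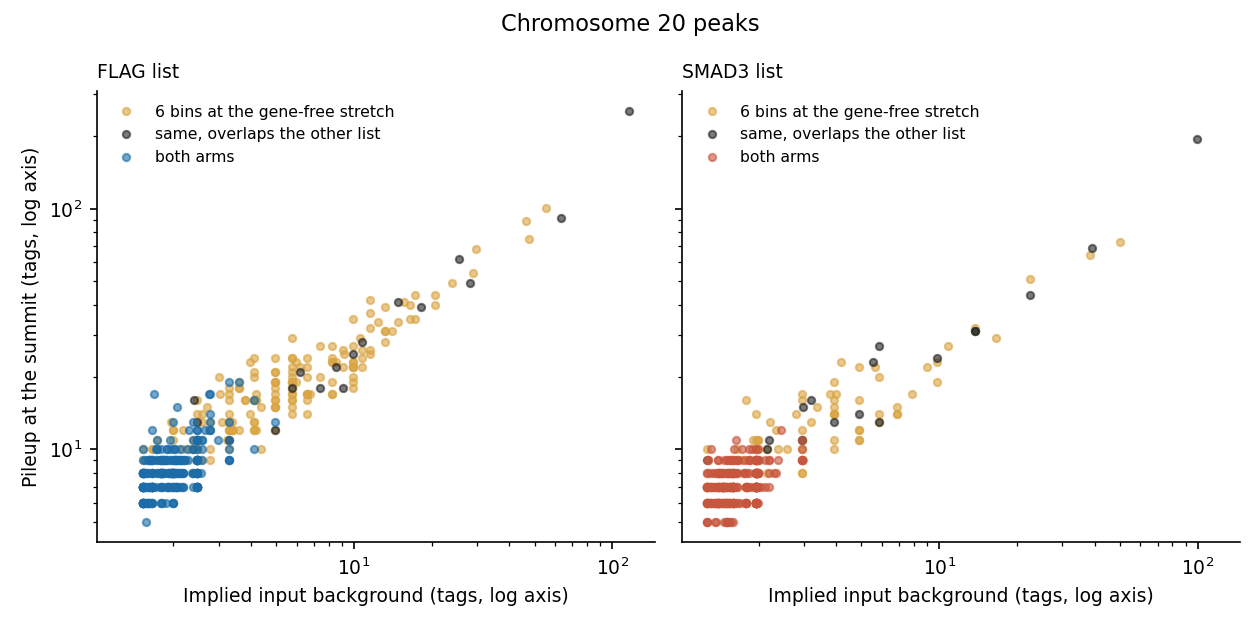
Pileup at the summit against implied input background, both in tags on log axes, for each chromosome 20 peak of the FLAG list (left) and the SMAD3 list (right). Peaks on the arms gather at backgrounds under 5 tags, while peaks of the 6 bins at the gene-free stretch run up to 255 tags over 116 (FLAG) and 196 over 99.9 (SMAD3). Dark points overlap a peak of the other list, and all of them belong to the stretch.

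Peaks shared by both lists were found in the stretch and nowhere else on the chromosome. A SMAD3 peak overlapped 17 of the 464 FLAG peaks by 1 bp or more (3.66%, 2.15 to 5.80%). Counted from the other list, the shared part was 17 of 388 (4.38%, 2.57 to 6.92%). Over all peaks of the lists the shares were 2.55% and 3.38%, so the chromosome as a whole was near them. All 17 pairs lay between 26 and 29 Mb, with summits 0 to 300 bp apart (median 45 bp). Their median input backgrounds were 9.07 tags (FLAG) and 5.57 tags (SMAD3), and 3 pairs had a q under 0.05 in both lists. One of these 3 stood on a low background, 2.47 and 1.27 tags: a FLAG peak at 27117359 to 27117642 (13 tags, 4.03-fold) with a SMAD3 peak at 27117407 to 27117725 (9 tags, 4.41-fold). The gene-free bins of the other chromosomes also held many of the shared peaks, 150 of 2114 FLAG and 151 of 828 SMAD3 peaks (18.2%) there, beside 17 of 206 (8.25%) and 17 of 111 (15.3%) in those of chromosome 20. In the bins of the other chromosomes median pileups were 13 and 10 tags, median backgrounds 3.30 and 1.99 tags, and 51.7% and 31.5% of the peaks had a q under 0.05. Their pooled density was 9.83 and 3.85 peaks per Mb, against 34.3 and 18.5 on chromosome 20. The pool mixes stretches of unlike length, up to 23 bins on chromosome 1 against 6 on chromosome 20. The next densest were those of chromosomes 5 and 19, at 31.2 and 29.8 FLAG and 13.2 and 13.3 SMAD3 peaks per Mb. The fullest single bin of another chromosome held 85 FLAG peaks (chromosome 9) and 32 SMAD3 peaks (chromosome 10), against 95 and 37 here. On the arms of chromosome 20, 0 of 258 FLAG peaks and 0 of 277 SMAD3 peaks were shared. The 95% Clopper-Pearson intervals allow shares of up to 1.42% and 1.32%. On the other chromosomes, outside their own gene-free stretches, 0.767% and 0.869% were shared, so the arms of chromosome 20 cannot be told from them at this number of peaks. The closest FLAG and SMAD3 summits on the arms were 511 bp apart, and the median distance from a FLAG summit to the nearest SMAD3 summit there was 76619 bp. Of the arms' FLAG summits 10.5% had a SMAD3 summit within 10 kb. These distances were not taken on the other chromosomes or set against peak density, so they do not show whether the lists lie close.

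Most of the chromosome's peaks with a q under 0.05 lay in the stretch. Of its FLAG peaks 123 (26.5%, 22.5 to 30.8%) had a q under 0.05, against 25.7% of all FLAG peaks. Among SMAD3 peaks it was 31 (7.99%, 5.49 to 11.1%), against 7.89% of all. Of these, 94 FLAG and 26 SMAD3 peaks belonged to the 6 bins of the stretch. Over the whole chromosome they came to 1.91 (FLAG) and 0.482 (SMAD3) per Mb, 2.66 and 2.89 times the other chromosomes, much as for all peaks. On the arms 29 of 258 FLAG peaks (11.2%, 7.66 to 15.7%) and 5 of 277 SMAD3 peaks (1.81%, 0.589 to 4.16%) passed. On the other chromosomes outside their gene-free stretches it was 16.0% and 4.07%. There 1042 FLAG and 234 SMAD3 peaks passed. On chromosomes 2, 4 and 21 the longest gene-free stretch is not at the centromere, so peaks at their centromeres stayed in. These chromosomes gave 150, 64 and 55 of the FLAG peaks that passed, and 25, 16 and 19 of the SMAD3 peaks. The shares and the densities on the others include them. Per Mb, the arms held 0.497 such FLAG peaks against 0.379 on the others, and 0.0857 against 0.0851 for SMAD3. Only 3 FLAG and 2 SMAD3 peaks of chromosome 20 reached a fold of 5, which is 0.0466 and 0.0311 per Mb and gave the chromosome ranks 22 and 7 of 23.

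Outside the stretch chromosome 20 was still the densest. Its arms held 258 FLAG peaks, 4.42 per Mb, and 277 SMAD3 peaks, 4.75 per Mb. The same rule was applied to each of the other chromosomes: the bins from the last protein-coding gene before its longest gene-free stretch to the first after it were left out. They then held 2.37 and 2.09 per Mb together, so chromosome 20 stood at 1.87 times the others (FLAG) and 2.27 times (SMAD3). On chromosomes 2, 4 and 21 that stretch is not at the centromere, so peaks at their centromeres stayed in. The stretch left out held at most 10 peaks of a list. Kept on these chromosomes were 80, 53 and 58 FLAG peaks over 250 kb from any gene. All chromosomes but 20 held 199 such peaks outside their stretches. For SMAD3 it was 22, 19 and 24 of 74. They count among the other chromosomes in each comparison made outside the stretches. Chromosome 10 followed in the FLAG list at 3.58, and chromosome 17 in the SMAD3 list at 4.43. The latter lies within the interval of chromosome 20, so counting error does not separate these chromosomes in the SMAD3 list. By the median bin outside the stretch, chromosome 20 had 4 in each list. That was the highest of the 23 chromosomes, and in the SMAD3 list chromosome 17 had 4 as well.

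**Figure D3:**
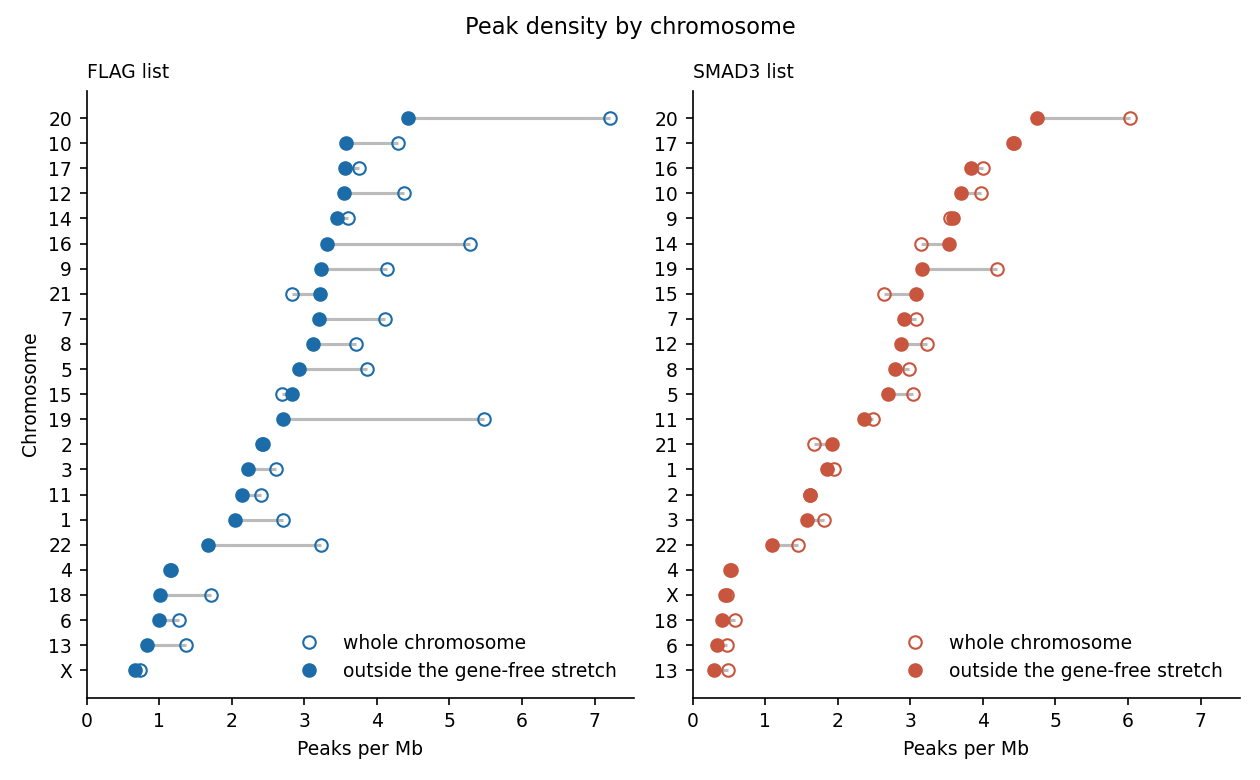
Peaks per Mb of each chromosome in the FLAG list (left) and the SMAD3 list (right), over the whole chromosome (open circles) and outside its longest gene-free stretch (filled circles), ordered by the filled circles. Chromosome 20 is highest on both measures in both lists, at 7.21 and 4.42 (FLAG) and at 6.03 and 4.75 (SMAD3). Outside the stretch chromosome 17 follows closely in the SMAD3 list, at 4.43.

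Copy number was not analysed here, and the input libraries enter the lists only through the implied input background. On the arms of chromosome 20 this background was higher than elsewhere. Its median was 1.93 tags against 1.59 on the other chromosomes outside their gene-free stretches (FLAG), and 1.59 against 1.41 (SMAD3), which are ratios of 1.21 and 1.13. The share of peaks at the floor showed the gap more plainly. It was 12.8% (33 of 258, 8.97 to 17.5%) on the arms of chromosome 20 and 43.3% on the others for FLAG. For SMAD3 it was 6.86% (19 of 277, 4.18 to 10.5%) and 29.6%. Over all peaks of the lists 34.7% and 26.7% were at the floor. Only chromosome 15 had a lower share than chromosome 20 outside its stretch, in both lists.

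The size of the background gap can be set beside the size of the density gap. Densities on the arms divided by the ratio of median backgrounds were 3.65 (FLAG) and 4.21 (SMAD3) peaks per Mb. With the other chromosomes scaled in the same way, chromosome 20 ranked 1 of 23 in each list. Because the floor hides low backgrounds and each value was taken at a peak, the ratio of medians is not a ratio of copies. Chromosomes 15 and 19 had higher median backgrounds than chromosome 20 outside their stretches, 2.07 and 2.44 tags in the FLAG list and 1.80 and 2.01 in the SMAD3 list. Their densities were lower, at 2.84 and 2.70 (FLAG) and 3.08 and 3.16 (SMAD3). Chromosome 21, at 1.96 tags and 1.92 peaks per Mb, did likewise in the SMAD3 list. Across the 23 chromosomes, density outside the stretch rose with median background, with a Spearman coefficient of 0.69 (FLAG) and 0.84 (SMAD3), and of 0.68 and 0.84 without chromosome 20. The chromosomes share libraries, floor and peak threshold and are not independent. The part of copy number in the density was not tested.

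**Figure D4:**
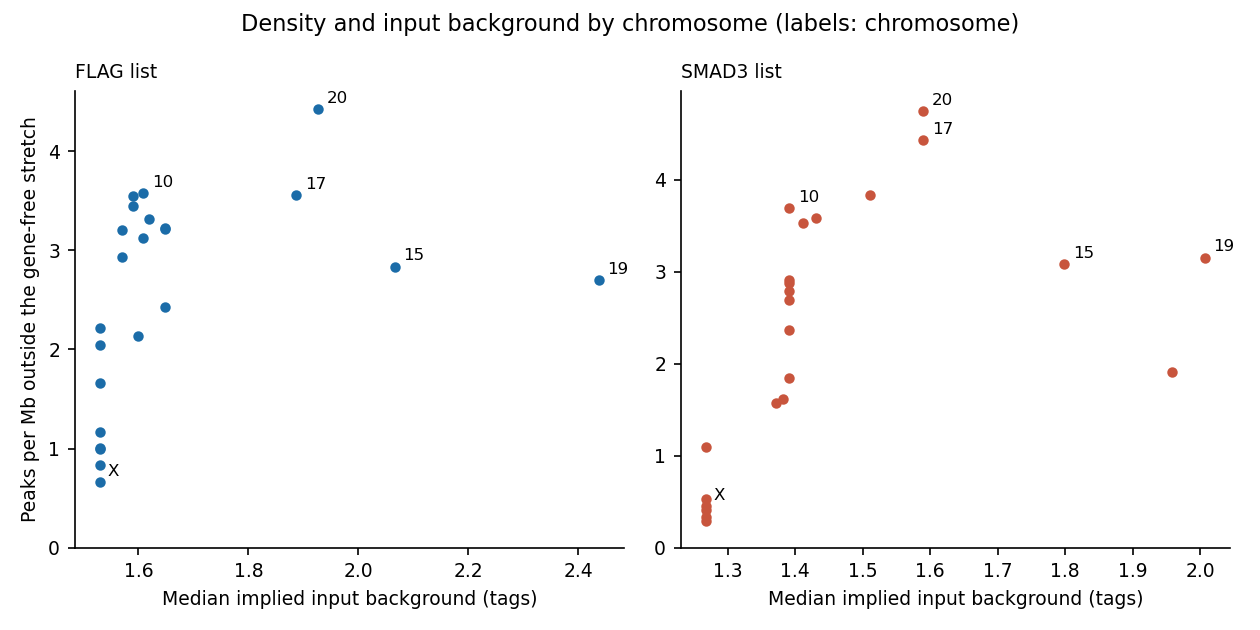
Peaks per Mb outside the longest gene-free stretch against the median implied input background in tags, 1 point per chromosome, for the FLAG list (left) and the SMAD3 list (right). Chromosome 20 is highest in density in both, while chromosomes 15 and 19 (and 21 for SMAD3) lie further right, at 2.07 and 2.44 tags (FLAG) and 1.80 and 2.01 tags (SMAD3), and lower.

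Within chromosome 20 the arm with the higher background was not clearly the denser. Counting the bins before and after the stretch as arms, the short arm had a median background of 2.05 tags and 4.24 FLAG peaks per Mb (3.47 to 5.13), and the long arm 1.79 tags and 4.56 (3.86 to 5.35). For SMAD3 the short arm had 1.71 tags and 4.88 per Mb (4.05 to 5.83), and the long arm 1.51 tags and 4.65 (3.95 to 5.44). The intervals of the arms overlapped for both antibodies. The share of peaks at the floor was 3.77% (4 of 106) on the short arm and 19.1% (29 of 152) on the long arm for FLAG, and 1.64% (2 of 122) and 11.0% (17 of 155) for SMAD3.

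The excess of peaks on the arms lay in peaks above the floor. At the floor chromosome 20 had 0.566 FLAG peaks per Mb (0.389 to 0.795) against 1.03 on the others, and 0.326 SMAD3 peaks (0.196 to 0.509) against 0.619. Above the floor and under 2 tags it had 2.11 (1.75 to 2.52) against 0.862 for FLAG and 4.11 (3.61 to 4.67) against 1.33 for SMAD3, ratios of 2.45 and 3.09. From 2 to under 3 tags the ratios were 4.41 and 3.14. In the class above the floor and under 2 tags, the median fold was 3.11 on chromosome 20 and 3.21 elsewhere (FLAG), and 3.05 and 3.04 (SMAD3). Median pileups of this class were also the same on chromosome 20 and elsewhere, 8 tags (FLAG) and 7 tags (SMAD3). A fold is computed from pileup and background, and all peaks passed the same p cutoff. Similar folds within a class therefore tell little about the peaks. Each count was divided by the whole length outside the stretch, not by the length at that background. The classes thus cannot separate more peaks at a given background from more sequence at that background, which was not tested.

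**Figure D5:**
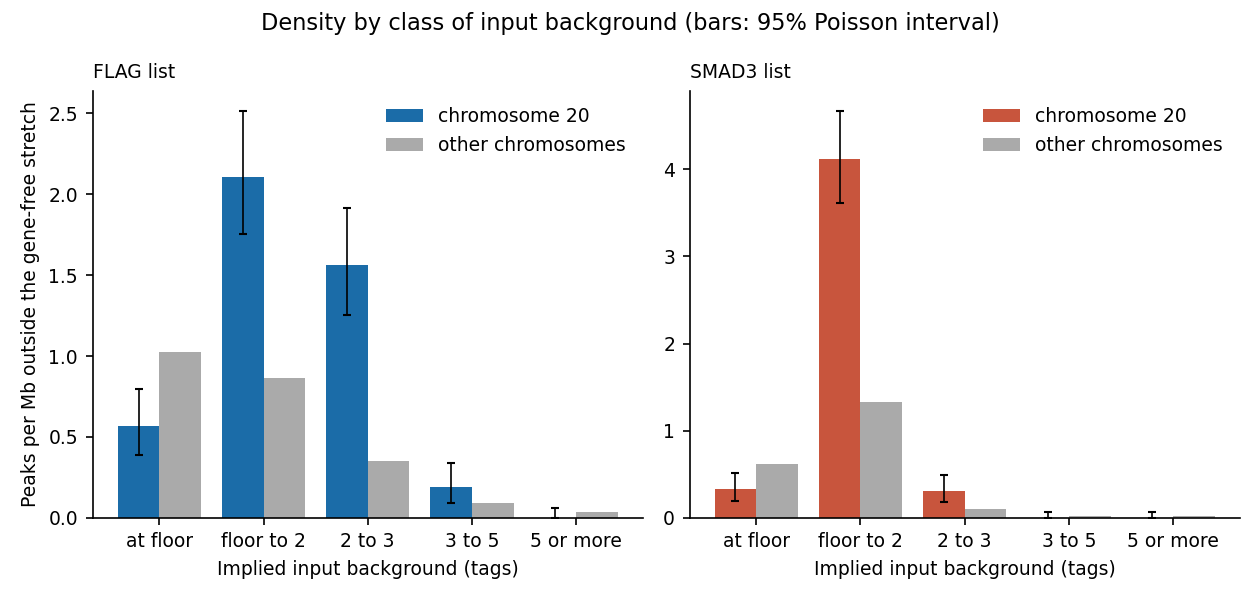
Peaks per Mb outside the gene-free stretch in 5 classes of implied input background, on chromosome 20 (coloured, with 95% Poisson intervals) and on the other chromosomes (grey), for the FLAG list (left) and the SMAD3 list (right). Chromosome 20 is lower at the floor (0.566 against 1.03 for FLAG) and higher in the next 2 classes (2.11 against 0.862 for FLAG above the floor and under 2 tags).

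Of the 537 protein-coding genes of chromosome 20, 146 (27.2%, 23.5 to 31.2%) had a FLAG summit in the gene or within 10 kb, against 16.5% of protein-coding genes of all chromosomes. For SMAD3 it was 129 genes (24.0%, 20.5 to 27.9%) against 16.1%. These genes were 1.68 and 1.51 times as frequent as on the other chromosomes, which may be read beside the density ratios of 1.87 and 2.27 on the arms. Both lists had a summit at 53 genes. The same count was not taken on the other chromosomes, so it is not read as a relation between the lists. With a q under 0.05 it was 20 genes for FLAG (3.72%, against 2.80% over all chromosomes) and 2 for SMAD3 (0.372%, against 0.616%), PRND and MTCL2. Along the arms the number of peaks in a bin did not follow the number of protein-coding genes, with Spearman coefficients over 59 bins of 0.17 (FLAG) and -0.07 (SMAD3). FLAG and SMAD3 counts were themselves only loosely related across these bins, at 0.15.

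The strongest FLAG peak of the chromosome lay 8261 bp outside PARD6B, a cell polarity gene (50761497 to 50762858). It had 17 tags over a background of 1.69, a fold of 6.69 and a −log10 q of 7.82. At 1362 bp it was also the widest. It was followed by a peak in the gene-free middle of the stretch (28439002 to 28439355, 5.25-fold, 20 tags) and by one in XKR7 (31968423 to 31968874, 5.22-fold, 15 tags). The next 2 were again in the stretch (28094975 to 28095215, 4.99-fold) and 18448 bp outside TGM2 (38186774 to 38187106, 4.91-fold). TGM2 encodes transglutaminase 2, an enzyme that cross-links proteins, and a further FLAG peak in the gene (38168259 to 38168582) had 17 tags, a fold of 4.81 and a −log10 q of 4.71. Of the 5 strongest SMAD3 peaks, 4 lay in the stretch, led by 26572596 to 26572798 (6.10-fold, 16 tags) and 27682932 to 27683134 (5.07-fold, 14 tags). The remaining one was in MTCL2, a microtubule cross-linking factor gene (36823461 to 36823680, 4.76-fold, 10 tags).

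The fullest FLAG bin outside the stretch ran from 31 to 32 Mb and held 11 FLAG and 4 SMAD3 peaks. It holds 20 protein-coding genes, ID1, BCL2L1 and TPX2 among them. Its strongest peaks were at XKR7, which also had a SMAD3 peak (3.97-fold), at MYLK2, a muscle myosin light chain kinase gene (4.03-fold), and DEFB124, a beta-defensin gene next to REM1 (3.35-fold). Bins from 10 to 11 Mb and from 35 to 36 Mb had 10 FLAG peaks each. The first has JAG1 (3.74-fold), SLX4IP (3.71-fold), MKKS (3.37-fold) and SNAP25 (3.20-fold), the second CEP250 (3.35-fold), RBM39 (3.23-fold), TRPC4AP (3.16-fold) and CNBD2 (3.09-fold). For SMAD3 the bin from 23 to 24 Mb led with 10 peaks. It spans the cystatin genes, and its strongest peaks near a protein-coding gene were at CD93 and CST5 (3.42-fold each), CST8 (3.21-fold) and GZF1 (2.68-fold). Bins from 6 to 7, 22 to 23 and 50 to 51 Mb held 9 SMAD3 peaks each. Named genes with a peak were FERMT1 (3.47-fold) in the first, none in the second, and RIPOR3 (3.86-fold), PTPN1 (3.47-fold), BCAS4 (2.90-fold) and UBE2V1 (2.37-fold) in the third. These peaks had 6 to 9 tags and a −log10 q under 1.

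The gene with most peaks was MACROD2, which encodes an ADP-ribose hydrolase and spans 2.06 Mb (13995516 to 16053197). It held 12 FLAG peaks (5.83 per Mb, 2.30- to 4.76-fold, 6 to 17 tags) and 11 SMAD3 peaks (5.35 per Mb, 2.37- to 4.05-fold, 5 to 9 tags). That is close to the density of the arms, 4.42 and 4.75. PTPRT, a receptor phosphatase gene of 1.16 Mb, held 4 FLAG and 5 SMAD3 peaks.

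Few genes had a peak at an end. A FLAG summit lay no more than 1 kb from the start or end of 23 of the 537 protein-coding genes (4.28%, 2.73 to 6.36%), against 1.80% over all chromosomes. These 23 genes rest on 20 peaks, since some peaks lie between neighbouring genes. Their share was 2.48 times that of the other chromosomes, beside 1.87 times as many FLAG peaks per Mb on the arms. For SMAD3 it was 8 genes (1.49%, 0.645 to 2.91%), against 1.52%. Only the FLAG peaks at XKR7, TGM2 and WFDC11 (3.95-fold, 9 tags) had a q under 0.05. The next strongest were TTI1 and its neighbour RPRD1B, which share a peak, CYP24A1 (3.35-fold), SPINT4 (3.23-fold), NAPB (3.17-fold), SGK2 (3.16-fold) and LPIN3 (3.16-fold). The 8 genes of the SMAD3 list were SRC (3.37-fold), PCNA (3.14-fold), GTSF1L, GDF5, MCM8 with TRMT6, XRN2 and C20orf173, with 6 to 9 tags each.

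Gene lists, chosen with earlier results of these data known, were read against the shares of all protein-coding genes of chromosome 20. These shares were 27.2% (FLAG) and 24.0% (SMAD3), beside 16.5% and 16.1% over all chromosomes. With 11 to 49 genes in a list, 1 or 2 genes move a share by several percentage points. A longer gene also leaves more room for a summit, and shares were not adjusted for length. The median gene of chromosome 20 spans 21.4 kb. In the lists it spans 42.7 kb (gained in carcinomas), 29.3 kb (cell cycle), 21.4 kb (TGF-beta and BMP), 10.5 kb (clusters) and 7.65 kb (epithelial and lung). Gene class and gene length therefore cannot be told apart in these shares. Of 13 TGF-beta and BMP genes, FLAG peaks lay in or within 10 kb of 6 (46.2%) and SMAD3 peaks of 2 (15.4%). The Notch ligand gene JAG1 (3.74-fold, 12 tags) and TGM2 were past a q of 0.05. The others were FKBP1A, whose product binds type I receptors (3.44-fold, 12 tags, −log10 q of 1.30, just short of the threshold), PMEPA1, a TGF-beta target that dampens the pathway (3.30-fold), ID1, a BMP target (3.16-fold), and ITCH, a ubiquitin ligase (2.30-fold). The SMAD3 peaks were at TGM2 (3.01-fold) and the BMP-family ligand gene GDF5 (2.70-fold). BMP2, BMP7, TGIF2, SNAI1, THBD and TRIB3 had none in either list.

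Of 18 cell cycle genes, 5 carried FLAG peaks (27.8%) and 7 carried SMAD3 peaks (38.9%), none with a q under 0.05. FLAG peaks lay at RBL1, a retinoblastoma-family gene (3.49-fold), TPX2, a spindle assembly factor (3.10-fold), TOP1, topoisomerase 1 (3.02-fold), CDC25B, a CDK-activating phosphatase (3.02-fold), and AURKA, the Aurora A kinase (2.83-fold). SMAD3 peaks lay at RAE1 (3.43-fold), the replication clamp PCNA (3.14-fold), DSN1 (3.04-fold), RBL1 (3.03-fold), TOP1 (2.83-fold), MYBL2 (2.79-fold) and MCM8 (2.54-fold). RBL1 and TOP1 had a peak of each list. Pileups ran from 6 to 11 tags.

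Of 22 genes of the long arm that carcinomas often gain, 7 carried FLAG peaks (31.8%) and 9 carried SMAD3 peaks (40.9%). PLAGL2, a zinc finger gene (3.81-fold, 10 tags, −log10 q of 1.43), was the only one with a q under 0.05. CYP24A1, the vitamin D 24-hydroxylase gene, had a FLAG peak of 3.35-fold and a SMAD3 peak of 3.53-fold. BCAS1 (3.18- and 3.40-fold) and DNMT3B, a DNA methyltransferase gene (2.77- and 3.09-fold), also had both. GNAS (3.53-fold), RTEL1 (3.30-fold) and BCL2L1 (2.71-fold) were in the FLAG list only, and PTPN1, SRC, NCOA3, EEF1A2, BCAS4 and HNF4A (2.77-fold) in the SMAD3 list only. Of 11 epithelial and lung genes, CDH4, a cadherin (3.52-fold for FLAG, 3.77-fold for SMAD3), and CDH26 (3.53-fold, SMAD3) had peaks. Of 49 genes in the beta-defensin, BPIF, WFDC, cystatin and SIRP clusters, 9 carried FLAG peaks (18.4%) and 8 SMAD3 peaks (16.3%). The former were WFDC11 (3.95-fold), WFDC3 (3.46-fold), DEFB124, DEFB116, SIRPB2, CST1, BPIFA2, BPIFB3 and BPIFB4. The latter were CST5, CST8, DEFB132, DEFB128, WFDC9, SIRPB2, BPIFB2 and BPIFB6. None of the SMAD3 peaks at any of these lists had a q under 0.05.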

How the data were processed

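The submitters' processing notes name FastQC 0.11.8, Bowtie2 (version not given in the sources used here), the peak caller MACS2 2.2.7.1 and the build hg38. Each ChIP was compared with its own input at a p cutoff of 0.0065 with 1 tag kept per position, per the file headers. After that filter 17133946 (FLAG) and 16857119 (SMAD3) ChIP tags and 20785894 and 17215727 input tags were left, per the file headers. Per peak, the deposited values are a pileup signal (tags piled up at its summit), a ratio to the background (fold enrichment) and −log10 of p and of q. They are the authors' own. The headers state that q is not calculated, yet that column holds values, used as they stand.

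From these the implied input background, (pileup + 1) / fold − 1, and counts in 1 Mb bins were computed in Python 3.11.15 with pandas 2.3.3 and scipy 1.17.1, and the code was tested on simulated data. Chromosome length was taken as the end of the last RefSeq gene. Genes came from RefSeq (GRCh38.p14), for 19974 protein-coding genes on chromosomes 1 to 22 and X. The gene-free stretch is the longest gap between protein-coding genes. Members, lists and rules were chosen with earlier results of these data known. Named genes are those at the 5 strongest peaks of each list, up to 4 at the fullest bins, up to 10 at gene ends per list, and list members with a peak. The rule also covers genes with overlapping peaks of both lists, of which there were none. PTPRT and MACROD2 were named after their values were seen. Sequence at the peaks outside promoter windows was not used here.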

Additional observations from a re-analysis of the deposited data

How the results depend on the processing

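Each alternative leaves peaks out or scales the density of chromosome 20 down, so its rank is the value to read. The other chromosomes were treated in the same way in each. Chromosome 20 ranked 1 of 23 in 7 of 12 alternatives in each list. By the median bin this was a tie with chromosome 17 in both lists. In peaks per Mb (FLAG, then SMAD3) these were 4.42 and 4.75 without the bins of the gene-free stretch, 4.80 and 4.85 without peaks over 250 kb from any gene, 5.77 and 5.63 without backgrounds of 5 tags or more, 4 and 4 as the median bin, and 4.88 and 5.03 divided by the ratio of median background. Both further settings were added after seeing the data: 3.65 and 4.21 outside the stretch with that scaling, and 4.42 and 4.75 without the stretch, far peaks and high backgrounds together. The latter repeats the value without the stretch, since the arms held no far peak and no background of 5 tags or more, and it adds no separate support. It did not rank first among stronger peaks: at a q under 0.05 it had 1.91 and 0.482 (rank 2 in each), with −log10 q from 5 upwards 0.171 and 0.0622 (ranks 8 and 2), and with folds from 5 upwards 0.0466 and 0.0311 (ranks 22 and 7). At a q under 0.05 outside the stretch it had 0.497 and 0.0857 (ranks 6 and 12, and 4 and 10 without far peaks, both added after seeing the data). The cause was not tested.

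A dense bin holds at least 2 times the median count. Such bins held 57.8% of FLAG and 47.7% of SMAD3 peaks, 62.9% and 58.8% with bins of 0.5 Mb, and 47.2% and 31.4% with bins of 2 Mb. With a q under 0.05 the median bin held no peak, so that alternative gave no value. Medians at a q under 0.05 were 18 and 16 tags, folds 3.69 and 4.07 and backgrounds 4.12 and 2.94 tags. Without far peaks the FLAG pileup was 8 tags and the backgrounds 1.99 and 1.59 tags, and without dense bins 8 tags, 1.97 and 1.59 tags. The shared share was 1.72% and 2.06% when each peak had to cover 50% of the other, and 6.47% and 7.47% when peaks 1 kb apart counted too. At a q under 0.05 it was 2.44% (3 of 123 FLAG peaks) and 9.68% (3 of 31 SMAD3 peaks). Genes with a peak numbered 20 and 2 at a q under 0.05. No paired analysis was possible because each antibody has 1 library. With medians of 8 and 7 tags on the arms, single peaks rest on few tags.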
